A study of Mus musculus with 8 samples.

Results

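The matrix proteases and their inhibitors were examined in mouse embryonic fibroblasts lacking Cbx2, beside fibroblasts of wild-type littermates. Genes were taken by symbol alone, as every Mmp, Timp, Adam, Adamts and Adamts-like (Adamtsl) gene in the authors' deposited table, which gave 70 of its 17441 genes. They comprised 21 matrix metalloproteinases (MMPs), 4 TIMPs, 19 ADAMTS proteases, 5 ADAMTS-like genes and 21 ADAMs. A further 15 genes with such names in the RefSeq mouse annotation were not listed in the table. The knockout group was primary fibroblasts of Cbx2-/- embryos, which carry a targeted deletion of the gene, and it was set against primary fibroblasts of wild-type littermates. Cells of both genotypes were taken at embryonic day 18, grown for 2 passages and sequenced as 2 RNA libraries per genotype, from 200000 cells and about 4.62 Gb each. Cbx2 belongs to a polycomb complex that binds chromatin and holds developmental genes silent. Nothing in the labels ties a library to an embryo, so the 2 libraries of a genotype may share their source, and p-values measure only the spread between these libraries, which may be technical.

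MMPs are zinc endopeptidases, secreted or held at the cell membrane, that cleave collagens and other matrix proteins. They are made as inactive proenzymes, opened by removal of a propeptide, and are blocked by the tissue inhibitors of metalloproteinases, the TIMPs. ADAMs are membrane-bound relatives, many of which release the ectodomains of growth factors, receptors and adhesion molecules. ADAMTS enzymes are secreted proteases that bind matrix through thrombospondin repeats, and ADAMTS-like proteins share those repeats but have no protease domain. Fibroblasts make many of these enzymes in connective tissue, where proteases and inhibitors act together in building and removing matrix.

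Among the genes past the threshold, 2 inhibitors were higher in knockout fibroblasts and 11 proteases and ADAMs were lower. Of the 70 genes, 3 were higher and 11 lower at an adjusted p under 0.05 in the authors' DESeq2 comparison, against 3.48% and 4.30% of all genes (7.78% in either direction). The 3 that were higher were Timp3, Timp2 and the sheddase Adam8. The 11 that were lower were 5 MMPs, 3 ADAMTS proteases and 3 ADAMs. The median log2 fold change of the 70 genes was -0.03, against 0.0036 for all genes of the table. Small changes pass more easily in abundant genes, and the same counts were therefore taken among genes with a mean value at or above the table's median of 230. There, 3 of 31 matrix protease and inhibitor genes were higher and 10 were lower (9.68% and 32.3%), against 4.66% and 7.10% of the 8721 genes. Adam8 and Mmp3 were the only members that also passed the authors' stricter call, a change of 2-fold or more, which 1.00% of all genes passed upward and 0.682% downward.

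Unless reads are named, levels and log2 fold changes (knockout over wild type) come from the authors' deposited table, in normalised reads with 1 value per genotype, and adjusted p-values are the authors' DESeq2 values over all 17441 genes. Standard errors (SE) were implied from the deposited fold change and p-value. For 46 of the 70 genes, all with a mean under 500, whole reads in each of the 4 libraries were recovered from the deposited values. They are given as 2 knockout counts against 2 wild-type counts, in no set order within a genotype. Reads are printed before scaling for depth, and overlap was judged after it. With 2 libraries per genotype, groups without overlap are common. Of the 6126 genes with a mean under 50, 22.1% were higher and 16.3% lower without overlap. No such share was counted for a mean of 50 to 500, so lack of overlap is only a description there. Cbx2 itself had 27 and 25 reads in the knockout libraries, against 324 and 355 reads in the wild-type libraries, and its log2 fold change in the authors' deposited table was -3.58 (SE 0.25, DESeq2 adjusted p = 2.55e-44). The deposited values sum to 18910077 in knockout and 19428299 in wild type. Of 12 fibroblast markers, 1 was higher and 8 were lower in knockout by the authors' DESeq2 test. Among all genes at or above the median mean, 4.66% were higher and 7.10% lower. The median log2 fold change of the markers was -0.33, and each had at least 258 normalised reads in knockout and 620 in wild type. In bulk RNA, fewer cells of a type and less RNA per cell cannot be told apart.

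**Figure D1:**
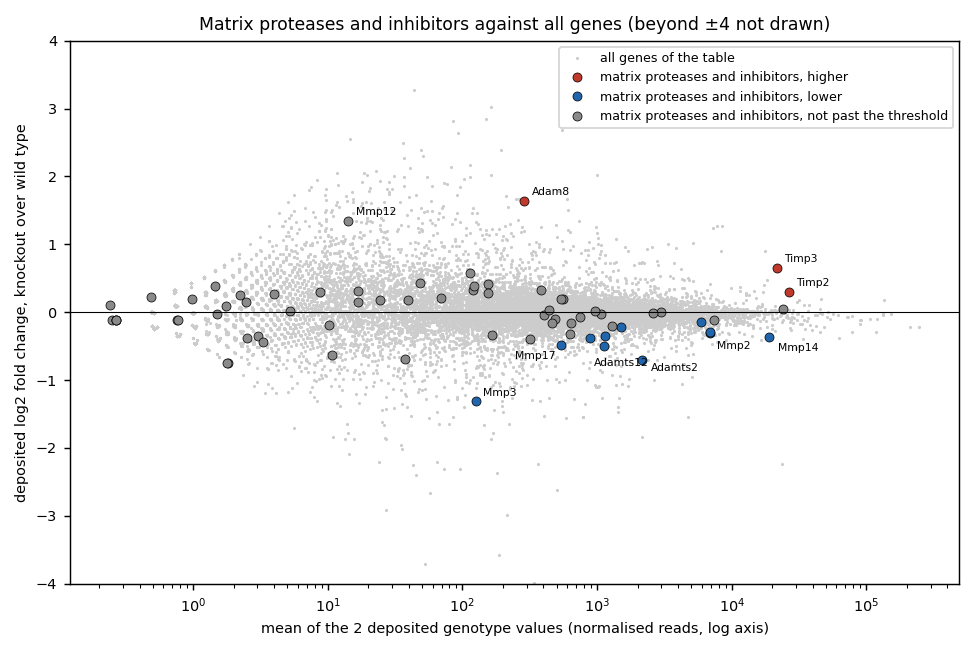
Each point is a gene, with the mean of its 2 deposited genotype values in normalised reads on a log x axis and its deposited log2 fold change, knockout over wild type, on the y axis. Small grey dots are all genes of the table and circles are the 70 matrix protease and inhibitor genes (red, higher in knockout; blue, lower; grey, not past a DESeq2 adjusted p of 0.05), with Timp3 and Timp2 above 0 and Mmp14 and Mmp2 below 0 among the abundant genes.

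Of the 4 TIMPs, 3 were among the most abundant products of the family, and the 2 that passed the test were higher in knockout. Timp3, the inhibitor that binds to matrix and also restrains ADAM and ADAMTS enzymes, stood at 26344 normalised reads in knockout and 16745 in wild type in the authors' deposited table, a log2 fold change of 0.65 (SE 0.036, DESeq2 adjusted p = 1.68e-70). Timp2, which blocks MMPs and also takes part in activating the proenzyme of Mmp2 at the cell surface, stood at 29485 in knockout and 23973 in wild type in the authors' deposited table, a log2 fold change of 0.30 (SE 0.034, DESeq2 adjusted p = 1.75e-16). On the linear scale Timp3 rose 1.57-fold and Timp2 rose 1.23-fold. Timp1, a broad inhibitor of secreted MMPs, had 24314 normalised reads in knockout and 23434 in wild type and did not pass (log2 fold change 0.05, SE 0.071, DESeq2 adjusted p = 0.931 in the authors' deposited table). Timp4 was close to the floor of detection, with 1 and 2 reads in the knockout libraries and 1 and 0 reads in the wild-type libraries. The 4 TIMPs together came to 80145 normalised reads in knockout and 64153 in wild type, of which Timp3 made the larger part of the difference.

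Levels can be set against each other between genes only per length. Per kilobase of the length given in the authors' deposited table, Timp1 ranked first of the 70 genes, at 26956 in knockout and 25980 in wild type, and Timp2 ranked second, at 8111 in knockout and 6595 in wild type. Mmp14 (4385 per kilobase in knockout, 5627 in wild type) and Timp3 (5628 per kilobase in knockout, 3577 in wild type) came next in the authors' deposited table, and their order differed between the genotypes. Mmp2 followed them, at 2010 per kilobase in knockout and 2487 in wild type, ahead of the ADAMs Adam9 and Adam19. The transcript pool of the family was therefore headed by 3 inhibitors and by the enzyme pair Mmp14 and Mmp2, and 4 of these 5 genes passed the test. Timp3 and Timp2 overlap other genes, and whether reads were counted by strand is not given in the sources used here. Syn3, which overlaps Timp3, had 3 and 3 reads in knockout and 6 and 8 reads in wild type. BC100451, which overlaps Timp2, had a log2 fold change of 0.26 that did not pass (DESeq2 adjusted p = 0.909 in the authors' deposited table).

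The MMPs that passed the authors' DESeq2 test were all lower in knockout. They were 5 of the 21 genes, against 4.30% lower and 3.48% higher of all genes, and 7.10% and 4.66% of those at or above the median mean. A limma test on the recovered reads of genes with a mean of 10 to 500 called Mmp12, Mmp15, Mmp16 and Mmp28 higher and Mmp3 and Mmp13 lower. That test called more genes in general, with 12.4% higher and 9.15% lower of the 6647 genes tested. The median log2 fold change of the 21 genes was -0.19, against 0.0036 for all genes, and their summed level per kilobase was 8358 in knockout and 10319 in wild type. Mmp14 and Mmp2 held most of that sum. Mmp14, the membrane-type enzyme that cleaves collagen at the cell surface and activates the proenzyme of Mmp2, stood at 16667 normalised reads in knockout and 21389 in wild type in the authors' deposited table (log2 fold change -0.36, SE 0.035, DESeq2 adjusted p = 5.18e-22). Mmp2, the gelatinase of fibroblasts, stood at 6187 in knockout and 7654 in wild type in the authors' deposited table (log2 fold change -0.31, SE 0.043, DESeq2 adjusted p = 6.80e-11). Enzyme, activator and inhibitor of the Mmp2 activation complex all passed the test, with Mmp2 and Mmp14 lower and Timp2 higher. Each change was smaller than 1.3-fold, and all 3 calls were lost when a spread of 10% between libraries was added to the implied standard errors (adjusted p = 0.554 for Mmp2, 0.269 for Mmp14 and 0.576 for Timp2, from the authors' DESeq2 fold changes), whereas Timp3 kept its call (adjusted p = 3.69e-04).

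Other membrane-type and secreted MMPs of moderate abundance gave a mixed picture. Mmp17, a membrane-type enzyme anchored by a glycolipid, was lower, at 453.9 normalised reads in knockout and 634.5 in wild type in the authors' deposited table (log2 fold change -0.48, SE 0.12, DESeq2 adjusted p = 9.80e-04). Mmp19, a secreted enzyme that cleaves basement membrane proteins, was lower too, at 765 in knockout and 992 in wild type in the authors' deposited table (log2 fold change -0.37, SE 0.095, DESeq2 adjusted p = 0.00190). Mmp19 overlaps Tmem198b, which did not pass and lay in the other direction (log2 fold change 0.15 in the authors' deposited table). Mmp16, another membrane-type enzyme, had 158 and 208 reads in the knockout libraries, against 121 and 133 reads in the wild-type libraries. Mmp15, its close relative, had 132 and 151 reads in knockout, against 97 and 77 reads in wild type. The knockout libraries were higher for both without overlap, but neither passed the deposited DESeq2 test (adjusted p = 0.378 and 0.156). How many of all genes at such levels lack overlap was not counted. The membrane-type group therefore held 2 genes that were lower and 2 whose reads lay the other way. Mmp25 had 11 and 8 reads in knockout and 12 and 10 in wild type, and Mmp24 had 1 and 2 in knockout and 4 and 3 in wild type.

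Among the remaining MMPs, Mmp11 and Mmp23, secreted or released enzymes expressed in stroma, did not pass. Mmp11 had 971 normalised reads in knockout and 955 in wild type, and Mmp23 had 1204 in knockout and 1383 in wild type, in the authors' deposited table (log2 fold changes 0.02 and -0.20, DESeq2 adjusted p = 0.976 and 0.121). Mmp9, the second gelatinase and an enzyme typical of leukocytes, had 131 and 147 reads in the knockout libraries, against 109 and 97 reads in the wild-type libraries. The groups did not overlap, and the gene did not pass (log2 fold change 0.33, SE 0.23, DESeq2 adjusted p = 0.671 in the authors' deposited table). Mmp28, also called epilysin, had 135 and 154 reads in knockout, against 112 and 94 reads in wild type, again without overlap and without passing the deposited DESeq2 test (adjusted p = 0.522). The 2 gelatinases thus lay in opposite directions, with only Mmp2 past the threshold.

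**Figure D2:**
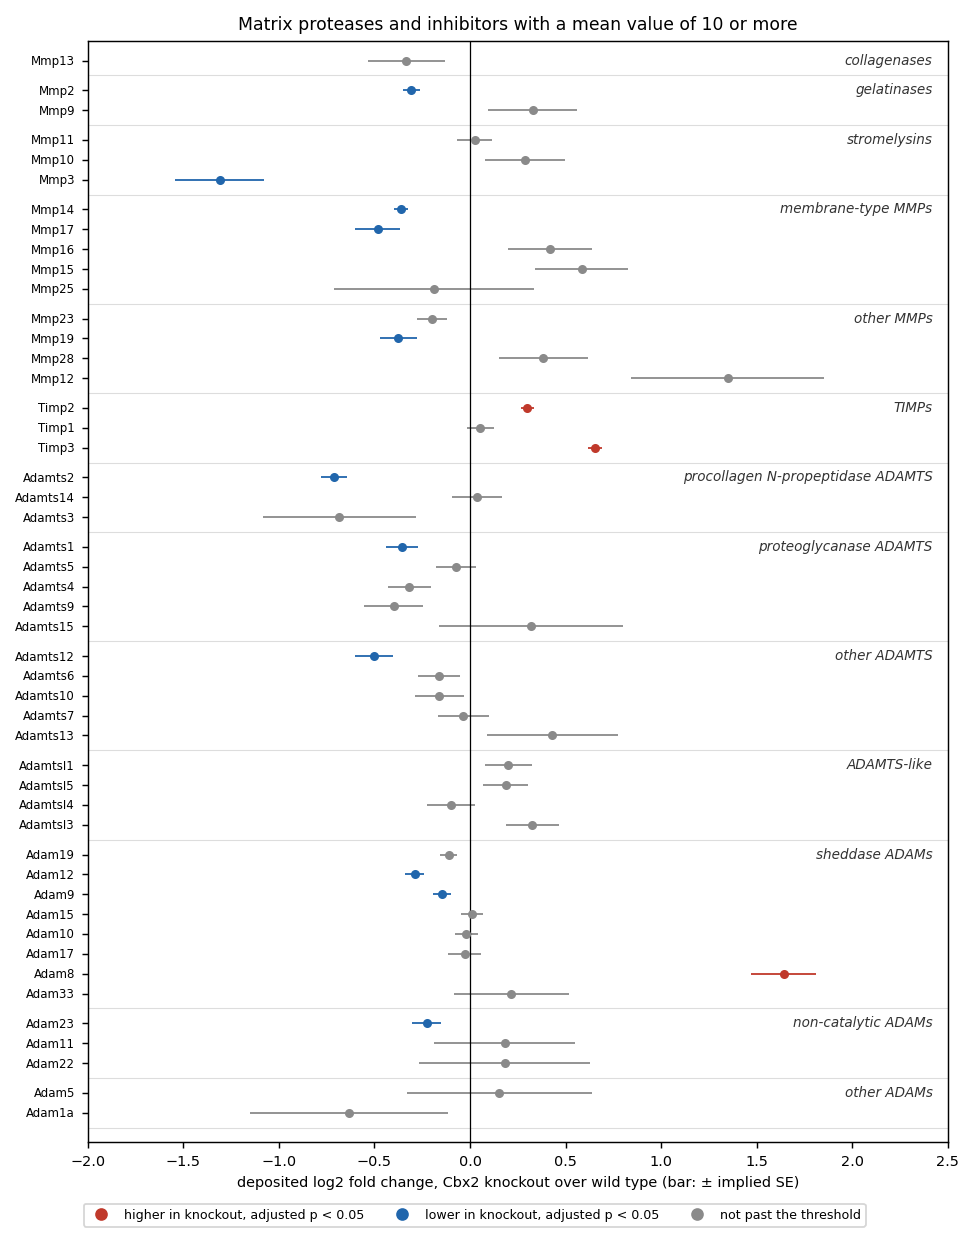
Deposited log2 fold changes, knockout over wild type (x axis), of matrix proteases and inhibitors with a mean of 10 normalised reads or more, grouped by role down the page and by falling abundance within a role; bars are ± 1 implied SE. Red and blue mark genes higher and lower in knockout at a DESeq2 adjusted p under 0.05, with Adam8 (1.64) and Mmp3 (-1.31) farthest from 0 among them.

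A cluster on chromosome 9 holds 8 of the MMP genes side by side, and neighbours within it lay in opposite directions. It spans 7272514 to 7581885 in RefSeq coordinates of GRCm38.p6, the assembly behind mm10, or 309.4 kb. In order along the chromosome it holds Mmp13, Mmp12, Mmp1b, Mmp3, Mmp1a, Mmp10, Mmp8 and Mmp27. The promoters of Mmp13, Mmp12, Mmp3 and Mmp10 are printed because the windows of these 4 genes hold both motifs marked below, at differing positions. The genes also differ in their reads. Each window holds 250 bases before the annotated start and 50 from it on, on the plus strand, from RefSeq with build GRCm38.p6. Capitals mark the AP-1 element TGANTCA, the binding site of Fos and Jun proteins, and the TATA box core TATAAA, both searched on both strands.

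Mmp13, chr9:7272264-7272563, AP-1 element from base -35 and TATA core from base -16, counted from 0 at the start:
Mmp13: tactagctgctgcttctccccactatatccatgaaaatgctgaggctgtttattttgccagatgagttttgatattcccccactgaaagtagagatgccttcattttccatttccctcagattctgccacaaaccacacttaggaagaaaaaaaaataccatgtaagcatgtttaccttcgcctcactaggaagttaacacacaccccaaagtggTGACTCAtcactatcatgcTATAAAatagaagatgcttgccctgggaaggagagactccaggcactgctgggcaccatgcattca
Mmp12, chr9:7347124-7347423, AP-1 element from base -44 and TATA core from base 4:
Mmp12: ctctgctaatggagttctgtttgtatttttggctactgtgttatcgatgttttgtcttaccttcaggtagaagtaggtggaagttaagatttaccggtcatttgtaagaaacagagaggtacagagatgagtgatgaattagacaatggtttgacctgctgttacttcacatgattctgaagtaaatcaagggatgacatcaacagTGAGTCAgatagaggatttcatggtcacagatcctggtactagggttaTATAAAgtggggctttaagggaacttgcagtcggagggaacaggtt
Mmp3, chr9:7445572-7445871, AP-1 element from base -46 and TATA core from base -7:
Mmp3: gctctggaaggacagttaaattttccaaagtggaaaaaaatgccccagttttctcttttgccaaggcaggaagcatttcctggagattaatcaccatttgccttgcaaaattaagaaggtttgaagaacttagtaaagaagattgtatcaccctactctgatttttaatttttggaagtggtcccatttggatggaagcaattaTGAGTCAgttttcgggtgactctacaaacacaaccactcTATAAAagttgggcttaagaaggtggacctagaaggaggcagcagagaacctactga
Mmp10, chr9:7502092-7502391, AP-1 element from base -63 and TATA core from base -29:
Mmp10: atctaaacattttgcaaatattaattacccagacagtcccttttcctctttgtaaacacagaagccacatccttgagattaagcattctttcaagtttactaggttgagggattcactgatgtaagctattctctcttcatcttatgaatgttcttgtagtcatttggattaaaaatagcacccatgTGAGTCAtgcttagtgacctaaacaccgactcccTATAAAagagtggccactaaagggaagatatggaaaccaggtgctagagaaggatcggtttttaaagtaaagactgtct

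Both motifs stood together in 6 of the 44 members with a RefSeq promoter, all in the cluster: these 4, Mmp1a and Mmp1b. Of 27025 mouse genes with such a window, 1.84% held both, 8.97% held the AP-1 element and 15.7% held the TATA core. For Mmp12 the motifs lie at the second of 2 annotated starts, and the window of the first start held neither. A match is a description of these letters and not a site shown to be bound.

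Mmp3, or stromelysin, which cleaves proteoglycans, laminin and fibronectin and activates other MMP proenzymes, was the member with the largest fall. It had 72 and 73 reads in the knockout libraries, against 185 and 169 reads in the wild-type libraries. The knockout counts were nearly identical and lay far below both wild-type counts, and the log2 fold change in the authors' deposited table was -1.31 (SE 0.23, DESeq2 adjusted p = 8.72e-07). Mmp10, the closely related second stromelysin, had 179 and 172 reads in knockout, against 149 and 120 reads in wild type. It lay the other way and did not pass (log2 fold change 0.29, SE 0.21, DESeq2 adjusted p = 0.699 in the authors' deposited table). Mmp13, the main interstitial collagenase of the mouse, had 155 and 148 reads in knockout, against 184 and 178 reads in wild type. Its groups did not overlap, and its log2 fold change of -0.33 did not pass (SE 0.20, DESeq2 adjusted p = 0.508 in the authors' deposited table).

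Mmp12, the macrophage elastase, had 23 and 24 reads in the knockout libraries, against 5 and 6 reads in the wild-type libraries. That was a log2 ratio of scaled reads of 2.00, where the shrunken log2 fold change of the authors' deposited table was 1.35 (SE 0.50, DESeq2 adjusted p = 0.0835). The knockout counts were close to each other and above both wild-type counts, though the gene missed the threshold of 0.05. The other 4 genes of the cluster were near 0 reads: Mmp27 had 2 and 2 in knockout and 4 and 5 in wild type, and Mmp8, the neutrophil collagenase, had 3 and 2 in knockout and 1 and 0 in wild type. Mmp1b had 1 and 3 reads in knockout and 5 and 3 in wild type, and Mmp1a had 0 and 0 in knockout and 1 and 0 in wild type. Mmp1a and Mmp1b are near copies of each other, so their reads are uncertain.

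**Figure D3:**
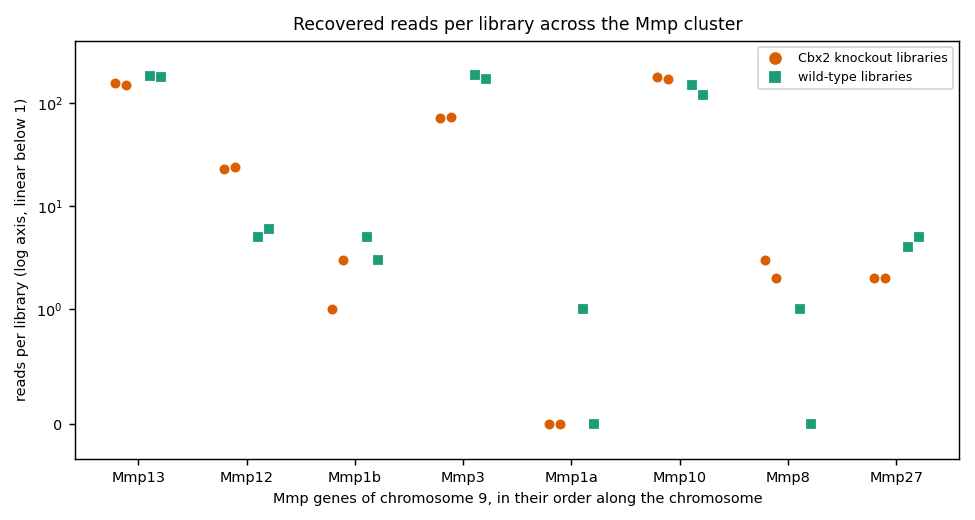
Recovered reads in each library (y axis, log scale that is linear below 1) for the 8 MMP genes of the chromosome 9 cluster in chromosomal order, with knockout libraries as circles on the left and wild-type libraries as squares on the right of each gene. Knockout circles lie below wild-type squares for Mmp3 (72 and 73 against 185 and 169) and above them for Mmp12 (23 and 24 against 5 and 6).

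The ADAMTS proteases that passed were lower in knockout. Of the 19 genes, 3 were lower and none was higher by the authors' DESeq2 test, against 4.30% lower and 3.48% higher of all genes, and 7.10% and 4.66% of those at or above the median mean, where these 3 lie. The median log2 fold change of the 19 genes was -0.12, against 0.0036 for all genes. Adamts2, which trims the amino-terminal propeptide from fibrillar procollagens before fibrils form, was the most abundant of them by value. It stood at 1646 normalised reads in knockout and 2695 in wild type in the authors' deposited table (log2 fold change -0.71, SE 0.066, DESeq2 adjusted p = 5.79e-25). This call was kept with a spread of 10% added (adjusted p = 2.81e-04, from the authors' DESeq2 fold changes). The other procollagen N-propeptidases were Adamts14, which had 446 and 468 reads in knockout against 446 and 393 reads in wild type, and Adamts3, which had 35 and 21 reads in knockout against 34 and 58 reads in wild type. Both overlapped between the genotypes, and neither passed the deposited DESeq2 test (adjusted p = 0.974 for Adamts14 and 0.482 for Adamts3).

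The proteoglycan-cleaving ADAMTS enzymes and those of other function each held a gene that was lower. Adamts1, which cleaves versican and aggrecan, was lower, at 997 normalised reads in knockout and 1276 in wild type in the authors' deposited table (log2 fold change -0.36, SE 0.083, DESeq2 adjusted p = 5.03e-04). Adamts12, a matrix protease known to cleave cartilage oligomeric matrix protein, was lower, at 938 in knockout and 1329 in wild type in the authors' deposited table (log2 fold change -0.50, SE 0.098, DESeq2 adjusted p = 1.09e-05). Both calls were lost with a spread of 10% added (adjusted p = 0.490 and 0.0925, from the authors' DESeq2 fold changes). Adamts4, an aggrecanase, lay just outside the threshold at 563 normalised reads in knockout and 702 in wild type in the authors' deposited table (log2 fold change -0.32, SE 0.11, DESeq2 adjusted p = 0.0594). Adamts5, the second aggrecanase, had 728 in knockout and 766 in wild type and did not pass (log2 fold change -0.07, DESeq2 adjusted p = 0.931 in the authors' deposited table). Adamts9, named after its values were seen, had 298 and 262 reads in knockout, against 344 and 354 reads in wild type, without overlap and without passing the deposited DESeq2 test (adjusted p = 0.101). Adamts6 and Adamts10, which act at fibrillin microfibrils, had a log2 fold change of -0.16 each and did not pass (DESeq2 adjusted p = 0.626 and 0.757 in the authors' deposited table). Adamts7 had 403 and 420 reads in knockout and 398 and 395 in wild type before scaling for depth. After scaling the genotypes overlapped, and the log2 fold change was -0.04 (DESeq2 adjusted p = 0.976 in the authors' deposited table).

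The 5 ADAMTS-like genes, whose products bind matrix and fibrillin without cutting it, held no call by the authors' DESeq2 test, and their median log2 fold change was 0.19. Adamtsl1 had 601 normalised reads in knockout and 523 in wild type, and Adamtsl5 had 575 in knockout and 505 in wild type, in the authors' deposited table (log2 fold changes 0.20 and 0.19, DESeq2 adjusted p = 0.523 and 0.562). Adamtsl3, named after its values were seen, had 442 and 446 reads in knockout, against 354 and 310 reads in wild type, and its groups did not overlap (DESeq2 adjusted p = 0.156 in the authors' deposited table). Adamtsl4 had 457 and 514 reads in knockout, against 510 and 470 reads in wild type before scaling for depth. After scaling, its knockout libraries were lower without overlap, and it did not pass (DESeq2 adjusted p = 0.931 in the authors' deposited table). Adamtsl2 had 7 and 4 reads in knockout and 5 and 5 in wild type.

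Among the ADAMs, one gene rose well beyond the others. Adam8, a metalloprotease with a disintegrin domain that sheds cell-surface proteins and is known mainly from leukocytes, had 485 and 421 reads in the knockout libraries, against 130 and 135 reads in the wild-type libraries. Before scaling for depth, both knockout counts were over 3 times both wild-type counts. In the authors' deposited table Adam8 stood at 435.8 normalised reads in knockout and 139.7 in wild type, a log2 fold change of 1.64 (SE 0.17, DESeq2 adjusted p = 4.43e-20), and it kept its call with a spread of 10% added (adjusted p = 2.17e-11). It lies on chromosome 7, from 139978932 to 139995207 in GRCm38.p6.

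Many macrophage markers lay in the same direction as Adam8 and Mmp12. Of 17 such markers, 10 were higher and none was lower by the authors' DESeq2 test, against 3.48% and 4.30% of all genes. Their median log2 fold change was 1.48, and the summed level was 2024 normalised reads in knockout and 706 in wild type. Lyz2, a lysozyme of myeloid cells, made up much of that sum, at 947 normalised reads in knockout and 148 in wild type in the authors' deposited table. Ctss, a cathepsin of antigen-presenting cells, had 87 and 90 reads in the knockout libraries, against 12 and 12 reads in the wild-type libraries. Adgre1, the F4/80 antigen, had 23 and 31 reads in knockout against 2 and 7 reads in wild type. Ptprc, the pan-leukocyte CD45, had 21 and 16 reads in knockout against 3 and 3 reads in wild type. Ptprc did not pass (DESeq2 adjusted p = 0.0640 in the authors' deposited table). C1qb had 3 and 1 reads in knockout against 3 and 8 reads in wild type, and Aif1 had 0 and 2 against 3 and 3. Both lay the other way and did not pass (DESeq2 adjusted p = 0.861 and 0.931 in the authors' deposited table). C1qa, Fcgr3 and Mrc1 were not called either. Csf1r, the receptor for the macrophage growth factor, had 289 and 242 reads in knockout against 234 and 240 reads in wild type and did not pass (DESeq2 adjusted p = 0.955 in the authors' deposited table). None of the 17 markers was at 0 in both libraries of a genotype. The part of these cells in the Adam8 and Mmp12 results was not tested.

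The abundant sheddases of fibroblasts changed little. Adam12 (meltrin alpha), which cleaves growth factor precursors and binding proteins, was lower, at 6170 normalised reads in knockout and 7545 in wild type in the authors' deposited table (log2 fold change -0.29, SE 0.049, DESeq2 adjusted p = 1.70e-07). Adam9, a widely expressed sheddase, was lower by less, at 5599 in knockout and 6197 in wild type in the authors' deposited table (log2 fold change -0.15, SE 0.046, DESeq2 adjusted p = 0.0227). Adam19 had 7072 in knockout and 7644 in wild type and did not pass (log2 fold change -0.11, SE 0.045, DESeq2 adjusted p = 0.122 in the authors' deposited table). Adam10 and Adam17, the main sheddases of Notch ligands, cadherins and growth factor precursors, were named after their values were seen. In the authors' deposited table Adam10 had 2564 normalised reads in knockout and 2598 in wild type, and Adam17 had 1050 in knockout and 1071 in wild type, with log2 fold changes of -0.02 and -0.03 (SE 0.061 and 0.086). Adam15 had 3009 in knockout and 2989 in wild type in the authors' deposited table. Adam23, an ADAM without a working catalytic site that acts as a binding partner, was lower, at 1387 in knockout and 1622 in wild type in the authors' deposited table (log2 fold change -0.23, SE 0.076, DESeq2 adjusted p = 0.0408). With a spread of 10% added, Adam12, Adam9 and Adam23 all lost their calls.

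Many ADAMs known from testis or brain gave few reads in these cells. Adam11 and Adam22, relatives of Adam23 that also lack catalysis, had 45 and 42 reads and 19 and 35 reads in the knockout libraries, against 41 and 30 reads and 17 and 26 reads in the wild-type libraries. Adam5 had 25 and 12 reads in knockout and 15 and 15 in wild type, Adam4 had 5 and 5 in knockout and 3 and 3 in wild type, and Adam1a had 8 and 7 in knockout and 15 and 13 in wild type. None passed the deposited DESeq2 test, and the reads of Adam1a and its near copy Adam1b are uncertain. In all, 31 of the 70 genes had a mean under 50, and 0 of them was called. Their reads were higher in both knockout libraries than in both wild-type libraries, after scaling for depth, in 8 genes and lower in 8, and overlapped in 15. Over all 6126 genes with a mean under 50, the shares without overlap were 22.1% higher and 16.3% lower. A mean under 10 was found for 22 genes, where the implied SE had a median of 0.44 on the log2 scale, against 0.059 for members above 1000. Adam32 and Adamts18, named after their values were seen, had 0 reads in both knockout libraries, against 3 and 4 reads and 4 and 3 reads in the wild-type libraries, counts too low to show a difference at this depth.

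**Figure D4:**
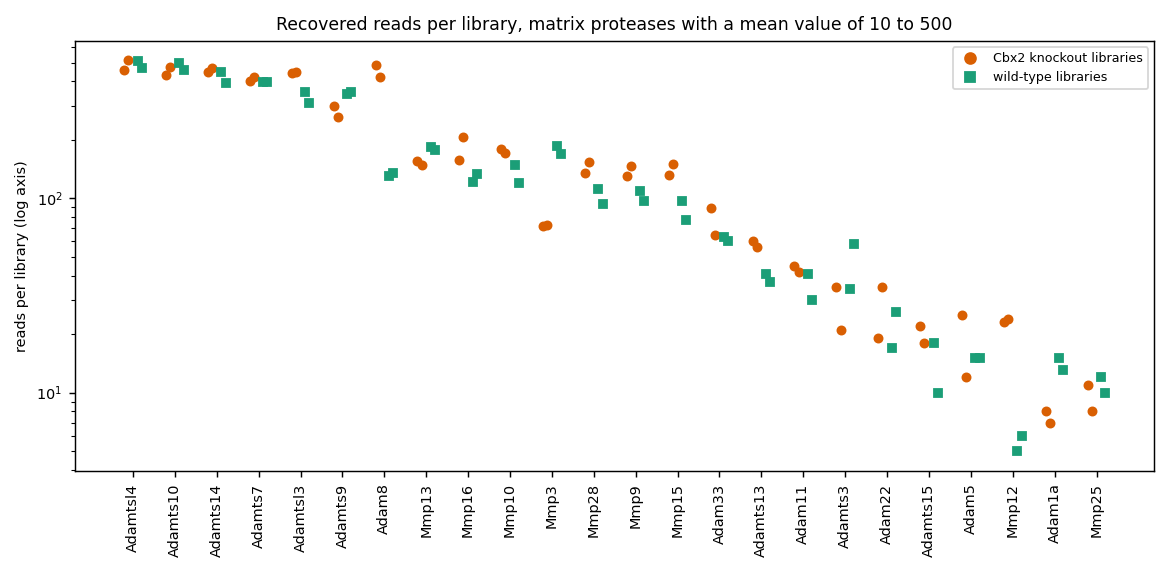
Recovered reads per library (y axis, log scale) for matrix protease genes with a mean of 10 to 500, ordered by falling mean, with knockout libraries as circles on the left and wild-type libraries as squares on the right of each gene. Adam8, Mmp15 and Mmp12 have knockout circles above the wild-type squares, and Mmp3 and Mmp13 have them below as well; the widest gaps are those of Adam8, Mmp12 and Mmp3.

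The recovered reads allowed a second test of the 24 members with a mean of 10 to 500, chosen after seeing the data. With limma on the log2 of scaled reads plus 1, 6 were higher and 4 lower at an adjusted p under 0.05, against 12.4% and 9.15% of the 6647 genes tested that way and against 1 and 1 in the deposited DESeq2 test. The members that were higher were Adam8, Mmp12, Mmp15, Adamtsl3, Mmp16 and Mmp28 (limma adjusted p = 0.0013 for Mmp12, 0.0013 for Mmp15, 0.0024 for Adamtsl3, 0.0170 for Mmp16 and 0.0338 for Mmp28). Those that were lower were Mmp3, Adamts9, Mmp13 and Adamts3 (limma adjusted p = 8.69e-04 for Adamts9, 0.0341 for Mmp13 and 0.0327 for Adamts3). With any 1 library left out, these counts fell to between 1 and 4 higher and between 1 and 2 lower.

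Genes that act with these proteases were examined as lists. Of all genes, 3.48% were higher and 4.30% lower, and of those at or above the median mean, 4.66% and 7.10%. Many listed genes are abundant, where small changes pass more easily. Of 25 other matrix proteases and activators, 3 were higher and 5 lower by the authors' DESeq2 test. Those that were higher were the lysosomal proteases Ctsd and Ctsb and the urokinase receptor Plaur, at 0.26, 0.17 and 0.34 as log2 fold change by the authors' deposited table. The 5 that were lower included Bmp1, the protease that removes the carboxyl-terminal propeptide of procollagens, its enhancer Pcolce, and the proenzyme convertase Furin, at -0.21, -0.15 and -0.15 as log2 fold change by the authors' deposited table, beside Htra1 (-0.47) and Prss23 (-0.20). Of 17 other inhibitors of matrix proteases, none was higher and 4 were lower, in contrast to the TIMPs, and the difference between the lists was not tested. They included Tfpi2 (log2 fold change -0.65), the cystatin Cst3 (-0.17) and Serpinf1 (-0.11), all in the authors' deposited table. Tfpi2 had 218 and 204 reads in the knockout libraries, against 307 and 321 reads in the wild-type libraries. None of 8 partners of Adam17 and Adam10, which are iRhom and tetraspanin proteins that carry these sheddases to the surface and the iRhom-binding protein Frmd8, passed the authors' DESeq2 test.

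Substrates of these enzymes were counted in the same way. Of 25 matrix substrates, 1 was higher and 9 were lower by the authors' DESeq2 test. The fibrillar collagens Col3a1 and Col1a2, whose procollagens Adamts2 trims, were lower (log2 fold changes -0.38 and -0.29 in the authors' deposited table), as were the proteoglycan Dcn (-1.06) and the laminin Lamc1 (-0.33). Col1a1 and Col2a1, fibrillar collagens of the same list that Adamts2 also trims, did not pass (log2 fold changes -0.22 and 0.04, DESeq2 adjusted p = 0.0653 and 0.935 in the authors' deposited table). The cartilage proteoglycan Acan had 13 and 10 reads in the knockout libraries, against 41 and 36 reads in the wild-type libraries. The substrate that was higher was Comp, a cartilage oligomeric matrix protein cleaved by Adamts12, with 125 and 94 reads in knockout, against 36 and 35 reads in wild type. Of 28 proteins shed by ADAMs, 5 transcripts were higher and 8 lower by the authors' DESeq2 test, and the 28 had a median log2 fold change of 0.02. Hbegf, Ereg and Areg, ligands of the epidermal growth factor receptor, were higher (log2 fold changes 0.39, 0.28 and 0.76 in the authors' deposited table). The other 4 ligands of that receptor on the list, Tgfa, Btc, Egf and Epgn, did not pass (log2 fold changes 0.53, -0.15, 0.25 and 0.04, DESeq2 adjusted p = 0.813, 0.931, 0.941 and 0.997 in the authors' deposited table). Nrg1, a ligand of the ErbB relatives of that receptor, Jag1, a Notch ligand, and Kitl, the Kit ligand, were lower (log2 fold changes -0.93, -0.41 and -0.62 in the authors' deposited table). Csf1 and Cd44, with the smallest adjusted p of the 8, were lower too (log2 fold changes -0.25 and -0.24 in the authors' deposited table). Of 14 AP-1 and Ets regulators, which include the Fos and Jun proteins that bind the AP-1 element, none was higher and 1 was lower, Etv1 (log2 fold change -0.71, DESeq2 adjusted p = 0.0162 in the authors' deposited table).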

How the data were processed

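RNA was sequenced from 2 Cbx2-/- and 2 wild-type fibroblast libraries, grouped by the genotype in their labels; ATAC-seq libraries were not analysed here. The authors deposited 1 table with a normalised read signal per genotype, the log2 fold change as deposited, which equals the log2 ratio of these columns within 9.13e-09 and is pulled toward 0 where reads are few, and the p-values and adjusted p-values of the authors' DESeq2 comparison, which match a Benjamini-Hochberg adjustment over 17441 genes within 1.33e-06. The submitters' processing notes name RSEM, Bowtie2, HISAT2 and the authors' DESeq2, and the mm10 build, with no version or role for any of them.

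The table held values per genotype where counts per library had been thought possible, so the deposited test was taken, as foreseen. The members and gene lists were chosen with earlier results of these data known. The genes named were every called member, every TIMP, the chromosome 9 cluster, the 3 most abundant members of each role and up to 5 called genes of each list; others named were chosen after their values were seen. Some genes that the rule takes are left out of the text. Coordinates and promoters came from RefSeq tables of GRCm38.p6, found by gene identifier (17400 of 17441 genes, all 70 members).

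Averaging both deposited signal columns gives a value built of whole reads, where 1 read of a given library always adds the same amount. Under a mean of 50, exactly 1 set of reads matched within 6e-09 for all 6126 genes. From 50 to 500, the deposited ratio (window 0.02 on the log2 scale) and a limit of 2-fold between libraries of a genotype were also used, and 1 set was left for 4928 of 4948 genes (99.6%). Recovered size factors were 1.034 and 1.031 in knockout and 1.007 and 0.9354 in wild type. In simulated knockout versus wild-type data, 300, 294, 294 and 281 of 300 genes were recovered rightly for means to 50, 200, 350 and 500, and 0, 0, 1 and 5 wrongly. These reads measure library differences for genes up to a mean of 500; for more abundant genes the depth behind a value is the deposited level alone. Added after seeing the data, limma 3.58.1 (R 4.3.3, trended variance, log2 of scaled reads plus 1) was run over 6647 genes with a mean of 10 to 500; on simulated data of that size it found 62%, 86%, 100% and 100% of genes changed 1.5, 2, 3 and 4-fold, with 15 false calls. Tables and plots were made with Python 3.11.15, pandas 2.3.3, numpy 2.4.6, scipy 1.17.1 and matplotlib 3.10.9. Alternatives were other thresholds, a filter at the median mean value, centring, an added spread of 10% between libraries, and the recovered reads.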

Additional observations from a re-analysis of the deposited data

How the results depend on the processing

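The counts of members called by the authors' DESeq2 test, 3 higher and 11 lower in knockout, were 3 and 9 at a threshold of 0.01, 4 and 12 at 0.1, and 3 and 11 over genes at or above the median mean value, where Adamts4 was gained and Mmp3 was not tested. They were 1 higher and 1 lower where a 2-fold change was also asked, against 1.00% and 0.682% of all genes. With a spread of 10% added they were 2 higher and 2 lower, which left Adam8, Timp3, Mmp3 and Adamts2 and ended 10 calls. No share of all genes is given for the other thresholds, the median filter, the added spread or the libraries left out. Those counts therefore do not show whether the members stand out from all genes. Among the 24 members with a mean of 10 to 500, the deposited test called 1 higher and 1 lower. For the same members limma on recovered reads called 6 higher and 4 lower, against 12.4% and 9.15% of the 6647 genes tested. With 1 library left out in turn, limma called 1 to 4 higher and 1 to 2 lower, the lone library being assumed to vary like the others; leaving out either knockout library gave 1 higher, and leaving out one or the other wild-type library gave 4 and 2. Centring on the median of abundant genes (a shift of -0.011) turned no direction of the 70. The log2 ratio of recovered reads was beyond the implied SE of the deposited value in 10 of 38 members compared, among them Mmp12, and it turned none. No paired analysis was possible because the deposited columns hold 1 value per genotype and the recovered reads carry no replicate number. Library values of genes above a mean of 500, which include 12 of the 14 called members, were not recovered, so no library could be left out for them.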

Other observations

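Genes around the chromosome 9 MMP cluster were looked at after the values of the cluster were seen. Within 2 Mb on each side the authors' deposited table lists 17 other genes. Of these, 0 was higher and 3 were lower in knockout by the authors' DESeq2 test, against 3.48% and 4.30% of all genes. Trpc6, a calcium-permeable channel, had 19 and 34 reads in the knockout libraries, against 94 and 75 reads in the wild-type libraries, and a log2 fold change of -1.55 (DESeq2 adjusted p = 1.98e-04 in the authors' deposited table). Arhgap42 stood at 640 normalised reads in knockout and 911 in wild type (log2 fold change -0.51, DESeq2 adjusted p = 1.65e-05 in the authors' deposited table). Tmem123 stood at -0.20 as log2 fold change by the authors' deposited table (DESeq2 adjusted p = 0.00283). The 6 nearest upstream genes, from Casp1 to Dcun1d5, did not pass, nor did Yap1, Birc2 and Birc3 on the other side.

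Some markers of other cell types also differed between the genotypes, and most did not pass. The shares of all genes were 3.48% higher and 4.30% lower. Of 12 endothelial markers, 2 were higher and 1 was lower by the authors' DESeq2 test. The junction genes Esam and Cdh5 were higher (log2 fold changes 3.03 and 2.40 in the authors' deposited table). Flt1, a receptor for vascular growth factors, was lower (-0.55). The other endothelial markers did not pass. Kdr had 57 and 41 reads in knockout against 58 and 61 reads in wild type, and Egfl7 had 81 and 69 against 84 and 82. The rest had few reads. Pecam1 had 1 and 3 reads in knockout against 2 and 2 reads in wild type, and Emcn had 0 and 0 against 1 and 1. Of 9 epithelial markers, none was higher and 2 keratins were lower, Krt8 (log2 fold change -3.71) and Krt18 (-1.78), in the authors' deposited table. The list summed to 272 normalised reads in knockout and 560 in wild type. Epcam had 3 and 1 reads in knockout against 3 and 1 reads in wild type, and Cdh1 had 4 and 1 against 2 and 1. Of 10 cartilage and bone markers, Col10a1 was higher (0.67), and Sox9 (-0.80) and Acan (-1.45) were lower, in the authors' deposited table. Whether such cells were present, and their part in the protease results, was not tested.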
